A study of Mus musculus with 8 samples.

Results

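The genes of the proteasome were described in gastrocnemius (GAS) muscle of mice after knockdown of MYTHO. Members were the genes whose symbol in the array annotation begins with Psm, a letter from a to g and a digit, with 1 probe set per symbol. This rule found 50 of the 22664 symbols on the array, and each of the 50 had a single probe set. Of these, 49 code for subunits, activators, an inhibitor or assembly factors of the proteasome. The remaining symbol, *Psmc3ip*, belongs to a factor of meiotic recombination that carries the name by its interaction with an ATPase subunit. It was left out of the counts, and its log2 fold change was -0.02.

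The animals were male C57/Bl6j mice, 14 weeks old per the labels. One GAS of each mouse received an adeno-associated virus (AAV) of serotype 1 with a U6 promoter that drove a short hairpin RNA against the *Mytho* transcript (AAV sh-RNA MYTHO, the MYTHO-KD muscle). The opposite GAS of the same mouse received an AAV with a scrambled hairpin under the same promoter (AAV sh-RNA scrmb). Both groups therefore carried virus and a hairpin, the muscles were taken 3 weeks after the injection, and each group held 4 arrays. The U6 promoter is active in most cell types, so the knockdown need not be restricted to muscle fibres. RNA came from whole muscle tissue, in which fewer cells of a type and less RNA per cell cannot be told apart. Letters A to D stand for the 4 animals.

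The proteasome is the main protease of the cytosol and nucleus. Its 20S core is a barrel of stacked rings, with alpha subunits on the outside that form the gate and beta subunits inside, some of which cut peptide bonds. The 19S cap sits on the alpha ring, binds ubiquitin chains, removes them, and unfolds the substrate with a ring of ATPases before feeding it into the core. In skeletal muscle this route degrades much of the contractile protein, and its subunit genes are known to be induced together in several forms of atrophy.

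All arrays had similar median log2 signals, from 6.39 to 6.47. The targeted gene, D230025D16Rik, was lower in all MYTHO arrays, from 8.08 to 8.80, than in all scrmb arrays, from 10.78 to 11.35, which left 14.2% of the scrmb signal. Its limma adjusted p was 0.00044. On the first principal component, the scrmb array of animal D at 3.31 stood nearer the MYTHO arrays, at 11.7 to 40.4, than the other scrmb arrays, at -45.4 to -25.7. The 8 skeletal muscle markers, which define the labelled tissue, were at or near the upper end of the scale on every array, with *Acta1* and *Myh4* at its ceiling.

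MYTHO-KD muscle had lower signals for a subset of the constitutive 26S subunits. In 8 of the 49 genes every MYTHO array lay below every scrmb array, and these were *Psmd7*, *Psma3*, *Psmc6*, *Psma1*, *Psmd12*, *Psma2*, *Psma4* and *Psmc5*. Their signals were 52.4% to 70.5% of scrmb. No proteasome gene was higher without overlap. Over all 22206 probe sets, 3.87% were lower and 2.59% higher without overlap. At an unadjusted p under 0.05, limma called 9 of the 49 genes lower and 0 higher, where 7.58% of all probe sets were called lower, 4.81% higher and 12.4% in either direction. The ninth gene was *Psmg3*.

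None of the 49 genes passed an adjusted p under 0.05 in the limma fit, and the lowest adjusted p was 0.0946, for *Psmd7*. Across the whole array only 0.027% of the probe sets passed, 0.018% lower and 0.00901% higher. A 2-fold difference with an unadjusted p under 0.05, the threshold in the methods of the study, was met by 0 of the 49 genes, by 1.25% of all probe sets in the lower direction and by 0.261% in the higher. With animal as a block, limma called the same 9 genes lower at an unadjusted p under 0.05 and 0 higher, where 7.66% of all probe sets were lower and 4.94% higher. In that fit 0 proteasome genes and 0.00901% of all probe sets passed after adjustment.

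A filter on mean signal that kept the upper 50% of all probe sets retained 42 of the 49 genes and all 8 genes without overlap. Among probe sets of the upper 50%, 4.94% were lower without overlap, 8.61% were lower at an unadjusted p under 0.05 and 6.28% were higher. In 11 of the 49 genes the MYTHO leg was lower than the scrmb leg in 4 of 4 animals, where 10.8% of all probe sets and 11.7% of the upper 50% were. In 2 genes, *Psme1* and *Psmd9*, it was higher in 4 of 4 animals, where 8.94% of all probe sets were.

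Counts above and below 0 were taken for each part of the complex, and the difference between parts was not tested. Of the 31 constitutive 26S subunits, 29 had a log2 fold change below 0 and 2 above, with a median of -0.20. Of the 17 immunoproteasome, thymoproteasome, activator, inhibitor and chaperone genes, 6 were below 0 and 11 above, with a median of 0.06. Over all 49 genes, 35 were below 0 and 14 above, and the median was -0.08, against -0.01 for all probe sets, of which 11241 were below 0 and 10870 above. The median over the 49 genes depended on single arrays. It was -0.02 without the MYTHO array of animal C, -0.125 without the scrmb array of animal A and -0.124 without the MYTHO array of animal B. Median centring of the arrays gave -0.04, with 31 genes below 0, and left 27 of the 31 constitutive subunits below 0. Without the MYTHO array of animal C, 22 of those 31 were below 0, with a median of -0.11. Without animal A in the blocked fit, the median of the 31 was -0.34. The median of the 17 genes ran from 0.05 to 0.10 without single arrays or animals.

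**Figure D1:**
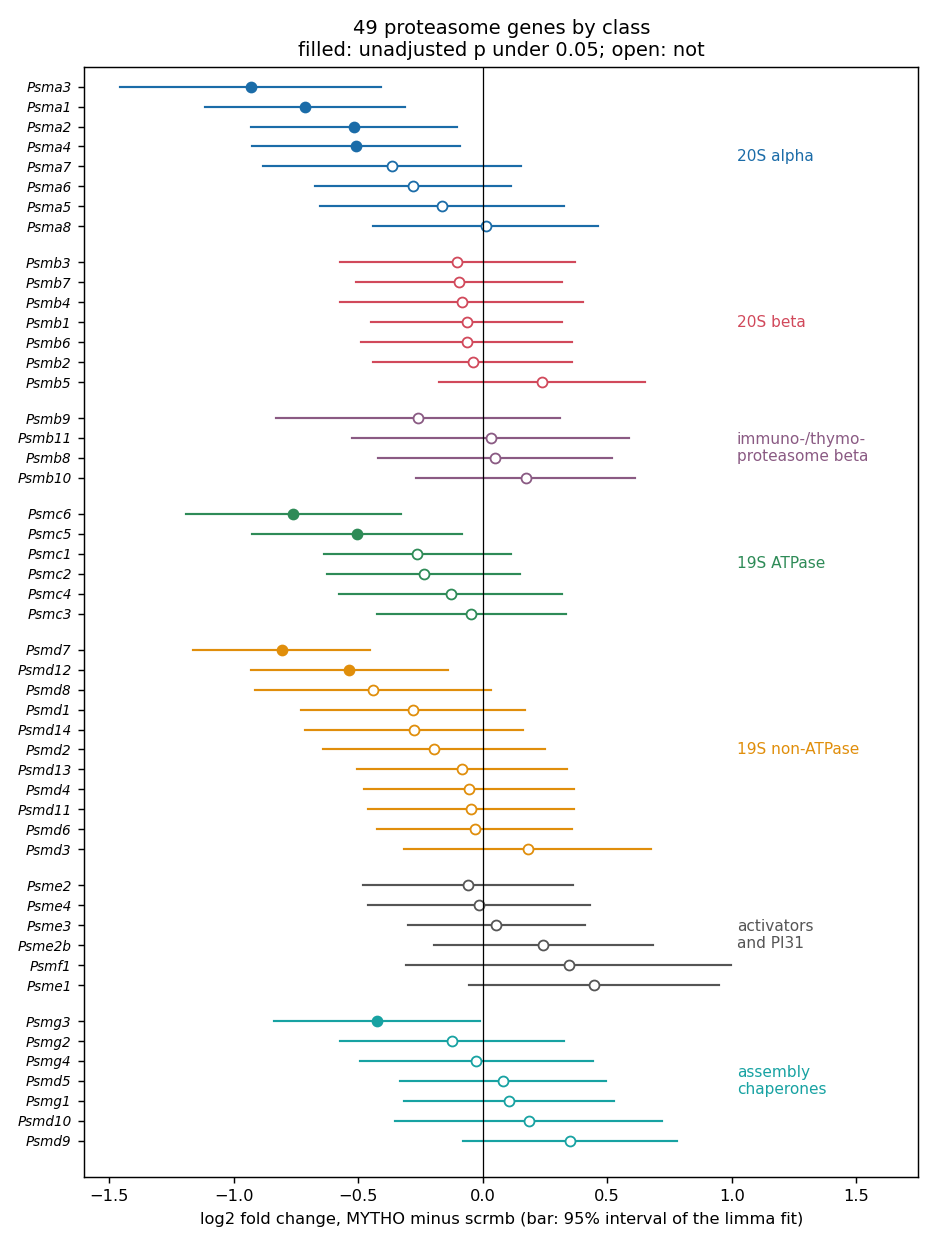
Log2 fold change (MYTHO minus scrmb, x axis) of the 49 proteasome genes, grouped by class. Points are limma estimates from 4 arrays per group, bars are 95% intervals, and filled points had an unadjusted p under 0.05. The filled points are *Psma3*, *Psma1*, *Psma2* and *Psma4* of the alpha ring, *Psmc6* and *Psmc5* of the ATPases, *Psmd7* and *Psmd12* of the lid and the chaperone *Psmg3*.

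The alpha ring, which gates the 20S core, had the lowest class median. Over its 8 genes the median of the log2 fold changes was -0.44, and 4 of them were lower at an unadjusted p under 0.05, where 7.58% of all probe sets were. Without *Psma8*, a testis form of the subunit that *Psma7* encodes, all 7 constitutive alpha genes were below 0, with a median of -0.51. *Psma8* had log2 signals of 4.33 to 5.27 on all arrays and a log2 fold change of 0.01.

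*Psma3* (Entrez gene 19167, chromosome 12, 70969283 to 70995877 in GRCm38.p6) had the largest difference of all members. The scrmb legs of animals A to D gave log2 signals of 12.57, 13.06, 13.16 and 12.53, and the MYTHO legs 11.79, 11.98, 11.42 and 12.40. The groups did not overlap, but MYTHO minus scrmb was only -0.13 in animal D, against -1.74 in animal C. Group means were 12.83 ± 0.33 (SD, n = 4) and 11.90 ± 0.41 (SD, n = 4), and the log2 fold change of -0.93 had a standard error of 0.24 and a limma adjusted p of 0.155.

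*Psma1* (Entrez gene 26440, chromosome 7, 114264550 to 114276116) was lower by a similar amount in every animal. The scrmb legs gave log2 signals of 11.71, 12.10, 11.99 and 12.09, and the MYTHO legs 11.04, 11.43, 11.09 and 11.47. The 4 leg differences ran from -0.90 to -0.62. Group means were 11.97 ± 0.18 (SD, n = 4) and 11.26 ± 0.22 (SD, n = 4), with a log2 fold change of -0.72, a standard error of 0.18 and a limma adjusted p of 0.155.

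The remaining alpha genes without overlap were closer. *Psma2* (Entrez gene 19166, chromosome 13, 14613242 to 14625673) had log2 signals of 12.16, 11.98, 12.09 and 11.69 in scrmb and 11.47, 11.62, 11.12 and 11.64 in MYTHO muscle. In animal D the legs were close, at 11.69 and 11.64. The log2 fold change of -0.52 had a standard error of 0.19 and a limma adjusted p of 0.301. *Psma4* (Entrez gene 26441, chromosome 9, 54950781 to 54958034) had log2 signals of 13.84, 14.48, 14.14 and 13.96 in scrmb and 13.75, 13.37, 13.59 and 13.68 in MYTHO muscle. MYTHO minus scrmb was smallest in animal A, at -0.09, and largest in animal B, at -1.11. The log2 fold change of -0.51 had a standard error of 0.19 and a limma adjusted p of 0.311. *Psma5*, *Psma6* and *Psma7* had overlapping groups and log2 fold changes of -0.17, -0.28 and -0.37. For *Psma7* the MYTHO array of animal C, at 8.48, lay below the other MYTHO arrays, at 9.03 to 9.65.

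In the 19S cap, 4 genes had groups that did not overlap, 2 ATPases and 2 subunits of the lid, where 3.87% of all probe sets were lower without overlap. The 6 ATPases, which form the ring that unfolds substrates, were all below 0, with a median log2 fold change of -0.25, and 2 were lower at an unadjusted p under 0.05, against 7.58% of all probe sets. *Psmc6* (Entrez gene 67089, chromosome 14, 45329823 to 45349074) had log2 signals of 12.03, 12.13, 12.40 and 11.63 in scrmb and 11.44, 11.38, 11.14 and 11.19 in MYTHO muscle. The groups did not overlap, and the scrmb array of animal D was the lowest of its group. Group means were 12.05 ± 0.32 (SD, n = 4) and 11.29 ± 0.15 (SD, n = 4), with a log2 fold change of -0.76, a standard error of 0.20 and a limma adjusted p of 0.157. *Psmc5* (Entrez gene 19184, chromosome 11, 106256185 to 106263112) had log2 signals of 10.56, 10.76, 10.31 and 10.38 in scrmb and 10.29, 9.68, 10.11 and 9.91 in MYTHO muscle. The groups nearly met, with the highest MYTHO array at 10.29 and the lowest scrmb array at 10.31. Its log2 fold change of -0.51 had a standard error of 0.19 and a limma adjusted p of 0.318. *Psmc1*, *Psmc2*, *Psmc3* and *Psmc4* had overlapping groups and log2 fold changes from -0.26 to -0.05.

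*Psmd7* (Entrez gene 17463, chromosome 8, 107580380 to 107588482), a lid subunit that forms a dimer with the deubiquitinase *Psmd14*, had the lowest p of the members. Animals A to D gave log2 signals of 15.54, 15.64, 15.53 and 15.42 in the scrmb legs and 14.77, 14.86, 14.55 and 14.72 in the MYTHO legs. Both groups were tight, and the highest MYTHO array, at 14.86, lay well below the lowest scrmb array, at 15.42. Group means were 15.53 ± 0.09 (SD, n = 4) and 14.73 ± 0.13 (SD, n = 4), 57.1% of scrmb. The log2 fold change of -0.81 had a standard error of 0.16 and a limma adjusted p of 0.0946. This p was 0.158 with animal as a block and 0.0179 with eBayes trend and robust, and ran from 0.0179 to 0.543 over all alternatives.

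*Psmd12* (Entrez gene 66997, chromosome 11, 107479528 to 107498036), a structural subunit of the lid, had log2 signals of 13.34, 13.51, 13.52 and 13.33 in scrmb and 12.97, 12.88, 12.55 and 13.16 in MYTHO muscle. The groups were nearest between the legs of animal D, where MYTHO minus scrmb was -0.17. The log2 fold change of -0.54 had a standard error of 0.18 and a limma adjusted p of 0.265. The other 9 non-ATPase genes had overlapping groups. *Psmd8*, a lid subunit, came nearest to the threshold, with a log2 fold change of -0.44 (95% interval -0.91 to 0.03). *Psmd14*, the deubiquitinase itself, had -0.28 (95% interval -0.71 to 0.16). The scaffolds of the base, *Psmd1* and *Psmd2*, had -0.28 and -0.20, and the ubiquitin receptor *Psmd4* had -0.06. *Psmd6*, *Psmd11* and *Psmd13* lay between -0.08 and -0.03, and *Psmd3* at 0.18 was the only gene of the class above 0. Of the 11 non-ATPase genes, 10 were below 0, with a median of -0.20. That median was -0.05 without the MYTHO array of animal C and -0.34 without animal A in the blocked fit.

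**Figure D2:**
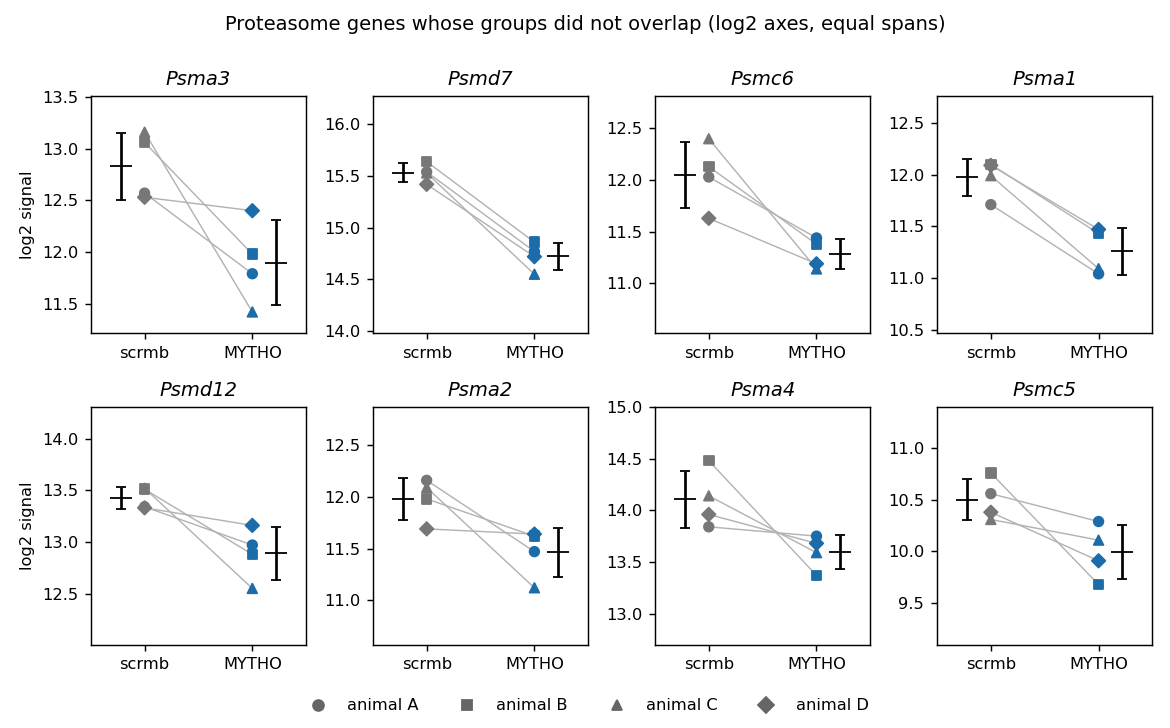
Log2 signal (y axis, equal spans in all panels) of the 8 proteasome genes whose groups did not overlap, in the scrmb and MYTHO legs of animals A to D, joined by animal. Bars give the mean and SD of 4 arrays. *Psmd7* shows the tightest groups, and *Psma2* and *Psma3* the smallest differences in animal D.

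Across these 8 genes the size of the difference varied by animal. The mean difference between the legs was -0.53 in animal A, -0.81 in animal B, -0.95 in animal C and -0.36 in animal D. That all of them were lower in every animal follows from the choice of genes whose groups do not overlap. *Psma1*, *Psma3*, *Psmc6* and *Psmd7* kept an unadjusted p under 0.05 when any single array, or any single animal in the blocked fit, was left out. Leaving out animal B moved *Psma4* and *Psmc5* by over 1.5 times, both to -0.31. Of the 40 genes that were neither called nor without overlap, 38 moved by over 1.5 times or turned in sign when some single array or animal was left out, and 23 turned in sign. The count of 9 lower genes became 4 without animal B and 5 without animal C in the blocked fit, where 5.58% and 5.08% of all probe sets were lower at an unadjusted p under 0.05. It became 6 without the MYTHO array of animal B, where 6.38% were. The count of 8 genes without overlap became 13 when animal A was left out, where 8.76% of all probe sets were lower without overlap. With median centring it was 7, as the groups of *Psmc5* then met.

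The beta ring, which holds the active sites, lay close to 0. Over its 7 constitutive genes the median of the log2 fold changes was -0.07, 6 were below 0, and none had an unadjusted p under 0.05 or groups that did not overlap. That median was 0.04, with 4 genes above 0, without the scrmb array of animal D. In the blocked fit it was -0.14 without animal A. *Psmb5*, the chymotrypsin-like subunit, had log2 signals of 8.28, 8.57, 8.37 and 8.76 in scrmb and 8.51, 9.05, 8.62 and 8.75 in MYTHO muscle. MYTHO exceeded scrmb in animals A to C and not in animal D, with a log2 fold change of 0.24 (95% interval -0.18 to 0.65). Its probe set also names the microRNA gene *Mir686*, so the signal cannot be assigned to *Psmb5* alone. *Psmb6*, the caspase-like subunit, had log2 signals of 11.56, 11.98, 11.93 and 11.63 in scrmb and 11.78, 12.04, 11.43 and 11.59 in MYTHO muscle. The groups overlapped fully, and the log2 fold change was -0.07 (95% interval -0.49 to 0.36). *Psmb7*, the trypsin-like subunit, had log2 signals of 14.54, 14.57, 14.47 and 15.06 in scrmb and 14.64, 14.34, 14.57 and 14.71 in MYTHO muscle. Its log2 fold change was -0.10 (95% interval -0.51 to 0.32), and 0.04 without the scrmb array of animal D, which stood above the others. *Psmb1*, *Psmb2*, *Psmb3* and *Psmb4*, which lack active sites, ranged from -0.10 to -0.04. A difference of the size seen in *Psma2* or *Psma4* is within the interval of *Psmb3* (-0.58 to 0.37) and *Psmb4* (-0.57 to 0.40). The paper reports lower mRNA of *Psmb5*, *Psmb6*, *Psmb7* and the chaperone gene *Psmg2* in MYTHO-KD muscle under basal conditions. Its main text does not name the muscle or the time of that measurement. On these arrays the 95% interval of each of these genes included 0, and *Psmb5* was above 0. The difference between the alpha and beta classes was not tested.

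**Figure D3:**
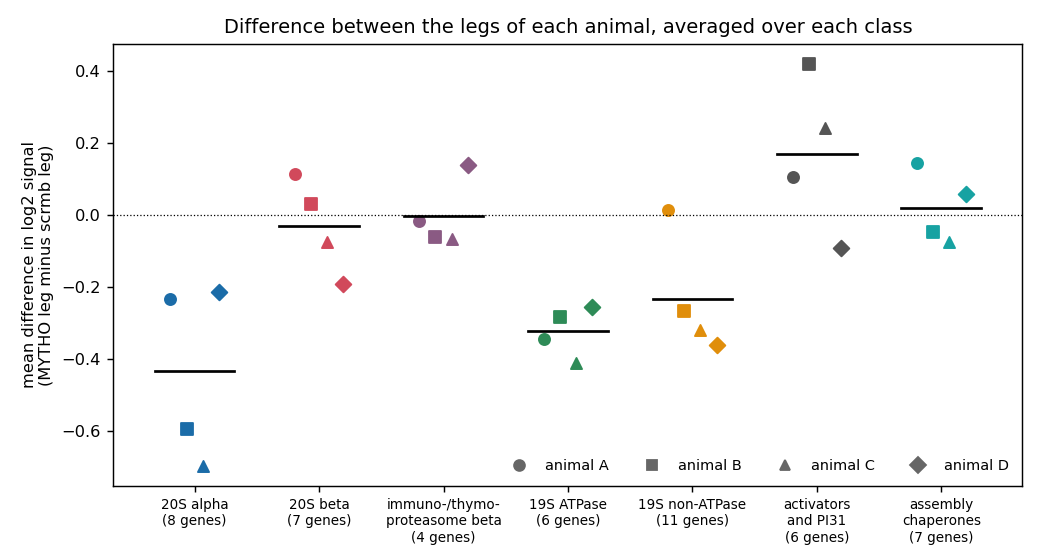
Mean difference in log2 signal between the MYTHO and scrmb leg of each animal (y axis), averaged over the genes of each class, with 1 point per animal and the mean over animals as a line. The 20S alpha and 19S ATPase classes were below 0 in 4 of 4 animals, from -0.70 to -0.21 and from -0.41 to -0.26, while the 20S beta class ran from -0.19 to 0.11.

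The leg difference of each class mean varied between the animals. The alpha class mean differed between legs by -0.23, -0.59, -0.70 and -0.21 in animals A to D. The ATPase class mean differed by -0.34, -0.28, -0.41 and -0.26, the narrowest spread of the classes in this direction. For the non-ATPase class the differences were 0.01, -0.27, -0.32 and -0.36, with animal A apart from the rest. The beta class mean differed by 0.11, 0.03, -0.08 and -0.19, which straddles 0. Counted by gene, 14, 24, 25 and 28 of the 31 constitutive subunits were lower in the MYTHO leg of animals A, B, C and D. Of all 22206 probe sets, 11283, 10802, 11552 and 11218 were. In animal A the median leg difference of the 31 was 0.07, so by gene they were not lower there.

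**Figure D4:**
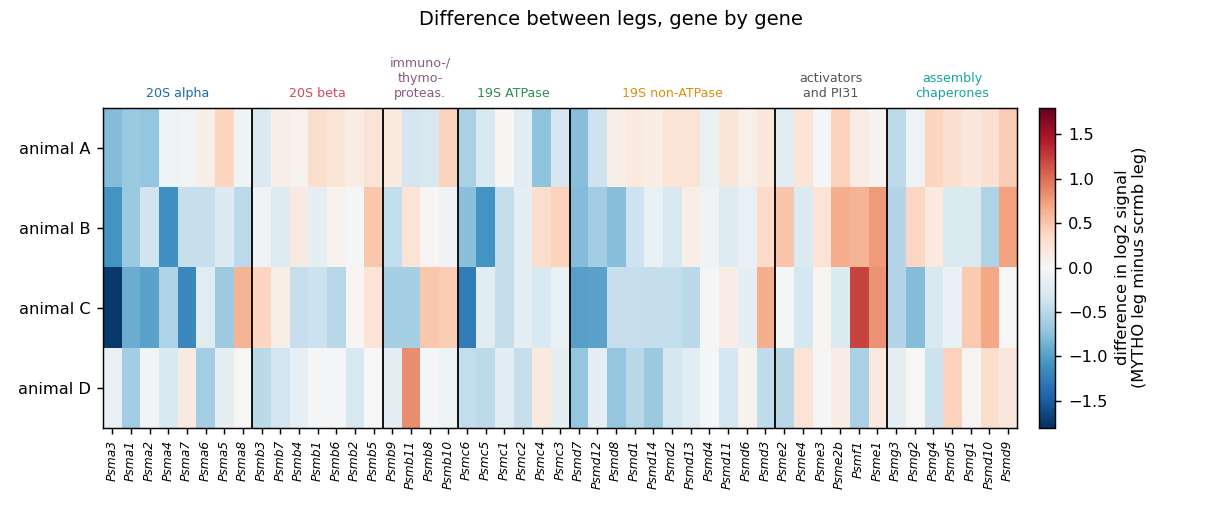
Difference in log2 signal between the MYTHO and scrmb leg (colour) for each of the 49 proteasome genes (columns, by class) in animals A to D (rows). *Psma3* in animal C, at -1.74, is the darkest cell, and *Psma1*, *Psmc6* and *Psmd7* are blue in every row by the choice described for genes whose groups do not overlap.

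Upstream sequences are shown for members that differ in direction or in the motifs they hold. Sequences of 250 bases before to 50 bases after a start site came from RefSeq on GRCm38.p6, and 41 of the 49 genes had 1 or more, including 7 of the 8 genes without overlap. *Psmd7* was not among them. Both strands were searched for 4 motifs. CCAAT, the letters bound by the factor NF-Y, was found in 14 of the 41 genes and in 37.4% of all 32851 promoters. It was present in *Psma1*, *Psma2* and *Psma3*, 3 of the 7 lower genes. TGACNNNGC, the core of the antioxidant response element through which NRF1 and NRF2 act on proteasome genes, was found in 6 of the 41 genes and in 12.4% of all promoters. Of the 7 lower genes it was present in *Psmc6* and *Psmd12*, and among the others in *Psmb5*, *Psmb6*, *Psmd9* and *Psme4*. GTAAACA, a core bound by FoxO factors, was in 0 of the 41 genes and in 3.65% of all promoters. The core of the interferon-stimulated response element was in 5 of the 41, *Psmb3*, *Psmd4*, *Psmd9*, *Psme1* and *Psmg4*, in 0 of the 7 lower genes, and in 3.44% of all promoters. Overlapping matches were counted, the motifs can overlap each other, and a match in these letters does not show binding. The 250 bases before the start follow for the alpha genes *Psma1* and *Psma3*, the ATPase gene *Psmc6*, all lower, and *Psmb5*, which was not, written 5′ to 3′ on the strand of the gene, with matches to CCAAT and TGACNNNGC on either strand in capitals. The start used for *Psma3* lies within the span of the gene.
*Psma1*, chr7:114276117-114276366, minus strand: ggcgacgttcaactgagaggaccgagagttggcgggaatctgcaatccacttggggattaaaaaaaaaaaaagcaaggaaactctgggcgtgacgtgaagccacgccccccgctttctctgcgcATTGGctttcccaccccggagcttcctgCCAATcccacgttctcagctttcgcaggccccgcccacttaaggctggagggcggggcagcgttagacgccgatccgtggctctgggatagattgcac
*Psma3*, chr12:70974373-70974622, plus strand: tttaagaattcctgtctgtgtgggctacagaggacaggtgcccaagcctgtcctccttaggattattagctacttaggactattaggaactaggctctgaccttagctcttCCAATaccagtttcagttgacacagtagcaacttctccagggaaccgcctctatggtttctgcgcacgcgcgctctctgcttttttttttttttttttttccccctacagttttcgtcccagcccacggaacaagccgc
*Psmc6*, chr14:45329574-45329823, plus strand: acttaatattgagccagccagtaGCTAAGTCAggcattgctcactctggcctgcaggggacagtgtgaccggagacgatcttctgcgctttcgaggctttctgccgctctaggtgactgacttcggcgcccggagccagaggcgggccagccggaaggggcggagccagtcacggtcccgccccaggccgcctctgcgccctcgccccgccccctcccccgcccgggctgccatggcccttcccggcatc
*Psmb5*, chr14:54617996-54618245, minus strand: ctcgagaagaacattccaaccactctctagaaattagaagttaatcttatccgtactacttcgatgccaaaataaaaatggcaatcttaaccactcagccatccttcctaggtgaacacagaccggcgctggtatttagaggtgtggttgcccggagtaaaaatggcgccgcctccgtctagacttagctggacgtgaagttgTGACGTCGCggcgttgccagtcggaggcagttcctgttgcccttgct

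In these sequences with the start site at 0, *Psma1* carries CCAAT at -98 and, on the opposite strand, at -126, and *Psma3* carries it at -139. The antioxidant element core begins at -47 in *Psmb5* and at -227, on the opposite strand, in *Psmc6*. *Psmc6* and *Psmb5* thus share the core letters, while their log2 fold changes were -0.76 and 0.24.

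The immunoproteasome subunits replace the active beta subunits in immune cells and after interferon. Their log2 signals were 5.0 to 6.59 on all arrays, and the filter that kept the upper 50% of probe sets removed them. *Psmb8*, which replaces *Psmb5*, had a log2 fold change of 0.05 (95% interval -0.42 to 0.52). *Psmb9*, which replaces *Psmb6*, had -0.26 (95% interval -0.83 to 0.31), and *Psmb10*, which replaces *Psmb7*, had 0.17 (95% interval -0.27 to 0.61). All 3 had overlapping groups. Without single arrays *Psmb9* ran from -0.46, without the scrmb array of animal D, to -0.09, without the MYTHO array of animal D. *Psmb10* ran from 0.05, without the MYTHO array of animal A, to 0.31, without that of animal B. *Psmb11*, the subunit of the thymus, was at 4.11 to 5.15 and had 0.03. Leukocyte markers were measured beside them. Of 12 such genes, 1 had an unadjusted p under 0.05, *Ptprc* with a log2 fold change of -0.59, where 7.58% of all probe sets were lower and 4.81% higher. The summed log2 level of the 12 was 11.4 to 12.2 in scrmb and 11.5 to 12.2 in MYTHO muscle. With animal as a block, 2 of the 12 were lower at an unadjusted p under 0.05, *Ptprc* and *Cd4*, and 1 was higher, *Cd68*. In that fit 7.66% of all probe sets were lower and 4.94% higher.

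The activators, which open the gate in place of the 19S cap, were mostly above 0. The 6 genes of this class, *Psmf1* included, gave a median of 0.15 on the log2 scale, with 4 above 0, and none had an unadjusted p under 0.05. That median was 0.05 without the scrmb array of animal C, 0.09 without the MYTHO array of animal B and 0.23 without that of animal C. In the blocked fit it was 0.08 without animal B and 0.07 without animal C. *Psme1*, a subunit of the PA28 alpha-beta activator that interferon induces, had log2 signals of 13.50, 13.64, 13.03 and 13.35 in scrmb and 13.55, 14.40, 13.84 and 13.52 in MYTHO muscle. Its groups overlapped, although the MYTHO leg was higher in each animal, by 0.05 to 0.81. The log2 fold change was 0.45 (95% interval -0.05 to 0.95), with a limma adjusted p of 0.461, and fell to 0.26 without the MYTHO array of animal B. *Psme2*, its partner in the same ring, had -0.06 (95% interval -0.48 to 0.36). *Psme2b*, a near-identical copy of *Psme2* whose signal may share probes with it, had 0.24. The nuclear activator *Psme3* had 0.06 and *Psme4*, which codes for the activator PA200, had -0.02. *Psmf1*, the inhibitor PI31, had 0.35 (95% interval -0.31 to 1.00), with the scrmb array of animal C, at 9.26, below the other scrmb arrays at 10.17 to 10.81. Without that array it was 0.03, and without the scrmb array of animal D 0.55.

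The assembly chaperones had a median of 0.08, with 4 of 7 above 0. That median was 0.03 without the MYTHO array and 0.05 without the scrmb array of animal A, and in the blocked fit 0.02 without animal A and 0.19 without animal B. *Psmg3*, which with *Psmg4* helps build the alpha ring, had log2 signals of 5.29, 4.92, 5.25 and 4.77 in scrmb and 4.82, 4.39, 4.72 and 4.60 in MYTHO muscle. The groups overlapped between 4.77 and 4.82, and the filter that kept the upper 75% of probe sets on mean signal removed the gene. Its log2 fold change of -0.43 (95% interval -0.84 to -0.01) had a limma adjusted p of 0.389. Among the other alpha-ring chaperones, *Psmg1* had 0.11, *Psmg4* -0.03 and *Psmg2* -0.12 (95% interval -0.57 to 0.33). Of the 19S base chaperones, *Psmd5*, *Psmd9* and *Psmd10* were measured. *Psmd9* had log2 signals of 7.54, 7.49, 7.93 and 7.40 in scrmb and 8.0, 8.22, 7.94 and 7.60 in MYTHO muscle. The MYTHO leg was higher in each animal, in animal C by only 0.01. Its log2 fold change was 0.35 (95% interval -0.08 to 0.78). *Psmd10* had 0.19 and *Psmd5* 0.08, which turned to -0.05 without the scrmb array of animal D.

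Genes that feed, build or regulate the proteasome outside the symbol rule were followed as a list of 45. Of these, 26 were below 0 and 19 above, with a median log2 fold change of -0.08, 2 were lower at an unadjusted p under 0.05, 0 were higher, and 0 passed after adjustment by limma. Of all probe sets 7.58% were lower at that p, so the list held no larger share of lower genes than the array. Without single arrays or animals that median ran from -0.11 to -0.01, the latter without the MYTHO array of animal C. *Nfe2l1*, which codes for NRF1, the factor that induces proteasome genes when activity is short, had log2 signals of 16.92, 17.05, 17.06 and 17.12 in scrmb and 17.06, 17.09, 17.01 and 16.84 in MYTHO muscle. The groups overlapped, with a log2 fold change of -0.04 (95% interval -0.39 to 0.31), which turned to 0.0025 after median centring. *Pomp*, the maturation factor of the 20S core, had -0.11 (95% interval -0.50 to 0.29). Its scrmb array of animal D, at 10.76, lay below the other scrmb arrays, at 11.15 to 11.31. *Adrm1*, a ubiquitin receptor of the 19S base, had 0.11 (95% interval -0.33 to 0.55).

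*Nploc4*, a cofactor that brings ubiquitinated substrates to the p97 segregase, had log2 signals of 14.08, 14.26, 14.31 and 14.14 in scrmb and 13.59, 13.79, 13.80 and 13.88 in MYTHO muscle. Its groups did not overlap, with a log2 fold change of -0.43 (95% interval -0.79 to -0.08) and a limma adjusted p of 0.311. *Vcp*, p97 itself, had 0.21 (95% interval -0.49 to 0.91). That value above 0 came from animal A, where MYTHO minus scrmb was 1.46, against -0.13, -0.23 and -0.25 in animals B to D. The scrmb array of animal A, at 11.21, lay below the other scrmb arrays, at 12.61 to 12.97. The other partner gene under the threshold was *Ifng*, the cytokine that induces the immunoproteasome, which had log2 signals of 5.52 to 6.06 and a log2 fold change of -0.38 with no overlap and a limma adjusted p of 0.372. The filter that kept the upper 50% of probe sets on mean signal removed *Ifng*, and its unadjusted p was above 0.05 in the limma fit with animal as a block. *Irf1*, a transcription factor that interferon induces, had 0.02 (95% interval -0.55 to 0.58).

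Other tissue components moved with the groups and are given beside these results. Slow-fibre markers were higher in MYTHO muscle, 7 of 8 at an unadjusted p under 0.05, against 4.81% of all probe sets, and 8 of 8 with animal as a block, with a median log2 fold change of 1.59. Their mean difference between legs was 1.18, 2.52, 2.87 and 0.08 in animals A to D, and that of the 31 constitutive proteasome genes was -0.09, -0.28, -0.41 and -0.28. The summed slow-fibre level was 15.5 to 17.6 in scrmb and 15.7 to 18.7 in MYTHO muscle on the log2 scale, so the groups overlapped. Of 5 endothelial markers, 2 were higher at an unadjusted p under 0.05, and their summed log2 level was 13.3 to 13.7 in scrmb and 13.8 to 14.0 in MYTHO muscle. Of the blood, adipocyte and Schwann cell markers, 0 had an unadjusted p under 0.05 in the fit without the block, with summed log2 levels that overlapped between the groups. The part of these components in the proteasome values was not tested.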

How the data were processed

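Trizol-extracted total RNA of GAS muscle was biotin-labelled and measured on Clariom S Mouse arrays, 4 per group. The authors deposited log2 signals made with default settings of the Transcriptome Analysis Console version 4.0.1. Per the file headers these are gene-level SST-RMA values, which are background-corrected, quantile normalized and summarised by median polish, with annotation release 36 on mm10. The deposited values are rounded, saturate at a ceiling, and carry no measure of detection. The number of arrays, 4 per group, limits the precision. The deposited table also holds group averages, fold changes, p-values and false discovery rates of the authors' own comparison, which were not used. Mean signals were ranked across probe sets only to filter them, and a rank on this scale does not compare the abundance of genes.

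The MYTHO and scrmb arrays were compared in R 4.3.3 with limma 3.58.1 (lmFit and eBayes, two-sided, MYTHO minus scrmb, no block) on all 22206 probe sets, with Benjamini-Hochberg adjustment over all of them, and the code was tested on simulated data. The prior degrees of freedom were 5.89 and the total 11.9. Each animal number in the column headers appears in both groups, and the scrambled virus was given to the opposite leg, so equal numbers pair the arrays. Deviations of paired arrays from their group means correlated at 0.00266, -0.00145, 0.135 and 0.0871 over probe sets. Since the labels number replicates in a way that no column header repeats, blocks used the animal. Each of the 4 animals gave 1 array per group. The fit without a block takes the legs of an animal as independent, and its p-values rest on the spread between arrays within each group. Those of the fit with animal as a fixed block rest on the spread of the leg differences between animals.

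The members and all lists were chosen with earlier results of these data known. Genes named were those with an unadjusted p under 0.05 or no overlap, *Psmb5*, *Psmb6*, *Psmb7* and *Psmg2* (named in the study), the catalytic immunoproteasome subunits, the extremes of each class, and the partners *Nfe2l1*, *Pomp*, *Adrm1* and *Irf1* (another partner gene is not reported here); others were added after their values were seen. All 50 symbols matched the RefSeq table for GRCm38.p6, from which positions and promoters were taken. Of the partner genes, *Sem1*, *Ecpas* and *Ufd1* were found under older symbols and *Paaf1* was not matched. No set test was run. Alternatives were quantile normalization, median centring, a filter that kept the upper 75% or 50% of probe sets on mean signal, array weights, trend and robust options of eBayes, leaving out saturated probe sets, 1 probe set per symbol, the animal as a fixed or random block, and leaving out each array or each animal.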

Additional observations from a re-analysis of the deposited data

Results flagged for a closer look

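Of the 116 groups of 4 arrays examined among the proteasome genes and their class means, 3 had an array that stood apart from the others by Dixon's test, and chance marks about 1 in 20 such groups. The scrmb array of animal D was the highest for *Psmb7*, the trypsin-like subunit, at 15.06 against 14.47 to 14.57. The scrmb array of animal C was the lowest for *Psmd4*, a ubiquitin receptor, at 12.15 against 12.59 to 12.68. The MYTHO array of animal C was the lowest for the mean over the 49 proteasome genes, at 10.47 against 10.65 to 10.67. On that array 36 of the 49 genes were below their own group mean and 24 were the lowest of the group, where 30.1% of all probe sets were.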

How the results depend on the processing

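Of the 22 alternatives, those that kept all arrays gave 8 or 9 lower proteasome genes. Under these, 6.34% to 9.11% of all probe sets tested were lower at an unadjusted p under 0.05 and 4.83% to 6.91% higher. *Psmg3* was the gene lost with quantile normalization, median centring and array weights, and by both filters on mean signal, which removed it. With eBayes trend and robust, 1 gene, *Psme1*, was higher at an unadjusted p under 0.05, *Psmg3* was replaced by *Psmd8* among the lower genes, and 1 gene, *Psmd7* at -0.81, passed after adjustment by limma. With animal as a replicate block, fixed or random, 9 genes were lower, 0 were higher and 0 passed after adjustment, with a lowest limma adjusted p of 0.158 for the fixed block. The block changed no call on a proteasome gene, but did so for other genes, among them *Ifng*, *Cd4*, *Cd68* and 1 slow fibre gene. Without single arrays or animals, the lower count ran from 4 to 10, the higher count from 0 to 2, and genes after adjustment stayed at 0. In these fits 5.08% to 8.74% of all probe sets were lower at an unadjusted p under 0.05 and 2.99% to 5.65% higher. Genes without overlap ran from 8 to 13 lower and from 0 to 2 higher. Without single animals, 7.18% to 10.4% of all probe sets were lower without overlap and 5.19% to 8.25% higher. The higher genes were *Psmd9* without the scrmb array of animal C, *Psme2b* without the MYTHO array of animal C, *Psme1* and *Psmd9* without the MYTHO array of animal D, and, in the blocked fit, *Psme1* without animal A and *Psmf1* without animal D. The median over all 49 genes ran from -0.14 to -0.0158. The medians of the alpha, ATPase and non-ATPase classes stayed below 0 under every alternative, while that of the beta class ran from -0.137 to 0.0383 and that of the immunoproteasome class from -0.0817 to 0.128. The cause of these shifts was not tested.

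Signs turned only for genes that were not called. *Nfe2l1* was 0.0025 with median centring and *Psma8* -0.028 with array weights. Without single arrays or animals, log2 fold changes spanned -0.267 to 0.0683 for *Psmb3*, -0.175 to 0.08 for *Psmb6*, -0.16 to 0.0383 for *Psmb7*, -0.139 to 0.163 for *Psmb8*, -0.187 to 0.173 for *Psma8*, -0.00667 to 0.393 for *Psmd3*, -0.243 to 0.09 for *Psme2*, -0.20 to 0.04 for *Psmc3*, -0.287 to 0.0967 for *Psmg2*, -0.0308 to 0.277 for *Adrm1*, -0.246 to 0.194 for *Irf1* and -0.0967 to 0.0433 for *Nfe2l1*. D230025D16Rik kept its direction but its limma adjusted p exceeded 0.05 in the blocked fits without animal A, B or D, at 0.0787, 0.159 and 0.0921. Among 827 values of single genes and classes under the alternatives, 792 kept direction and side of the threshold.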
